A study of Mus musculus and Homo sapiens
Mus musculus with 16 samples.

Results

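The genes described here encode 49 enzymes that finish the sugar chains of cell-surface glycoproteins, glycolipids and proteoglycans with sialic acid, sulfate or glucuronic acid. They were chosen by symbol, as every autosomal protein-coding mouse gene whose name starts with St3gal, St6gal (which takes in St6galnac), St8sia, B3gat, Hs3st, Hs6st, Ndst or Chst, and they are 49 of 20665 such genes. The values are chromatin interactions in the forebrain of mouse fetuses, from 4 libraries made by PLAC-seq with an H3K4me3 antibody, 2 of embryonic stage E12.5 and 2 of E16.5. PLAC-seq joins neighbouring DNA ends in crosslinked nuclei by ligation, and the antibody then selects the joined fragments that carry a histone mark; H3K4me3 marks active and poised promoters. The labels give tissue and stage and no genotype or treatment; the sources used here do not give the number of fetuses pooled or whether the replicates are of different litters. The only strain and sex named is in the extract protocol of E12.5 replicate 1, which describes cerebral cortex of adult male C57BL/6J mice and so goes against that library's own tissue and stage labels. The same description of mice stands with all 12 single-cell samples of the series, fetal ones included. The tissue and stage labels were followed, and results are also given without that library where leaving it out changes them. With no separate litters or animals named, the p-values rest on the spread among these 4 libraries alone, and that spread may be technical. Whole forebrain holds many cell types, so more cells with a contact and a stronger contact per cell cannot be told apart. The series holds 16 samples, and the other 12, single-cell libraries, were not analysed here.

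Sialyltransferases cap glycans with sialic acid: St3gal and St6gal enzymes attach it to galactose, St6galnac enzymes to N-acetylgalactosamine, and St8sia enzymes to another sialic acid, so that St8sia2 and St8sia4 build the polysialic acid of the neural cell adhesion molecule. B3gat1 and B3gat2 add the glucuronic acid of the HNK-1 epitope, which Chst10 then sulfates. Ndst, Hs6st and Hs3st enzymes set the sulfation pattern of heparan sulfate, to which growth factors bind, and most Chst enzymes sulfate chondroitin, dermatan or keratan chains. In the developing brain these glycans are known for their parts in cell migration, axon growth and the extracellular matrix.

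The authors listed, in each library separately, the pairs of 10 kb bins (mm10) that they called as interacting, 20 to 1000 kb apart. The lists held 18413 and 16075 interactions in E12.5 replicates 1 and 2, and 35291 and 36794 in E16.5 replicates 1 and 2, supported by 405491 to 911710 read pairs. Sequencing depth beyond the lists is unknown, so an unlisted pair may still be in contact. A gene was followed through its gene-end bins, the bins that hold either end of the gene. All 16 forebrain marker genes had listed interactions, with 244 to 306 per library in sum; 8 of 9 hindbrain and spinal cord markers did too, with 38 to 68, against 1 of 5 endothelial markers, with 0 to 1, 4 of 8 microglia and blood markers and 3 of 5 meninges markers. Markers moved between stages with the family, in the same edgeR fit as below: of 15 forebrain markers tested, Neurod6 (0 and 0 at E12.5, 21 and 15 at E16.5, adjusted p = 0.0128) and Tbr1 (3 and 3, then 27 and 20, in a bin shared with Psmd14, adjusted p = 0.0205), both of postmitotic neurons, rose. The fit took bins with a sum of at least 10, which Neurod6 reached through E16.5 alone, so it had to differ. Emx2 (48 and 51, then 29 and 33), Dlx2, Sox2 and Hes1 fell after scaling for the length of the lists (adjusted p = 0.00925 to 0.0476). With the lists cut to equal length, Dlx2, Sox2 and Hes1 no longer passed (edgeR adjusted p = 0.126, 0.0655 and 0.0837). Nor did they pass with DESeq2 (adjusted p = 0.339, 0.181 and 0.0854), and Tbr1 did not pass with DESeq2 either (adjusted p = 0.133). Of 8 hindbrain and spinal cord markers tested, Hoxb4 (15 and 11, then 5 and 1, adjusted p = 0.0154) and Pax2 (8 and 8, then 0 and 1, adjusted p = 0.0127) fell, and none of the 3 tested markers of the other cell types passed. With DESeq2 the Pax2 call was lost (adjusted p = 0.0598). The part of such changes in the values below was not tested. Neurod6 was at 0 and Emx2 at a like number in both E12.5 libraries, including the one with the conflicting protocol.

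The promoter sequences below belong to the family genes that carry the 3 main patterns and have an annotated start in the table used: a gain in listed interactions (Hs6st3, Chst11), contacts listed at both stages (St8sia2), and a pair of paralogs whose promoters contact each other (Hs3st3a1, Hs3st3b1). Each is the 250 bases before an annotated RefSeq start (GRCm38.p6), written 5′ to 3′ on the gene's strand, with CG dinucleotides in capitals. That start is not always the outer end of the gene used for the gene-end bins. The Hs6st3 and Chst11 windows lie inside the gene, whose outer ends are at 119137516 and 82984440. The St8sia2 window overlaps the gene's outer end at 74013727. Hs6st3 lies at chr14:119138015-119138264 (+), Chst11 at chr10:82985247-82985496 (+), St8sia2 at chr7:74013683-74013932 (-), Hs3st3a1 at chr11:64435082-64435331 (+) and Hs3st3b1 at chr11:63922285-63922534 (-).
Hs6st3: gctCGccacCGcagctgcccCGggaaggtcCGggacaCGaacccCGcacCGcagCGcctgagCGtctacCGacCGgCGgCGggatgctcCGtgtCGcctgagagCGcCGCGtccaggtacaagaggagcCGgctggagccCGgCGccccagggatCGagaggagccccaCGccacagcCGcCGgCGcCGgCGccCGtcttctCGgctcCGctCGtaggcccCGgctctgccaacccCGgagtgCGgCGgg
Chst11: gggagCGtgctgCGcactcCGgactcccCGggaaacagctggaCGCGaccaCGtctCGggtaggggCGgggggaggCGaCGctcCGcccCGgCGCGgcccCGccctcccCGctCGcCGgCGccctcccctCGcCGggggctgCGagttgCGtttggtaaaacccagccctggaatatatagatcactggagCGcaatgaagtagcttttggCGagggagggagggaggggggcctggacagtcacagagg
St8sia2: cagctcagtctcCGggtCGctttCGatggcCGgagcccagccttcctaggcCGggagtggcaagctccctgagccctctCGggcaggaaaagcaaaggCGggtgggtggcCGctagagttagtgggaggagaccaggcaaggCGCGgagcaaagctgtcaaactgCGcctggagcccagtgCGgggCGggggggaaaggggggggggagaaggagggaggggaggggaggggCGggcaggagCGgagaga
Hs3st3a1: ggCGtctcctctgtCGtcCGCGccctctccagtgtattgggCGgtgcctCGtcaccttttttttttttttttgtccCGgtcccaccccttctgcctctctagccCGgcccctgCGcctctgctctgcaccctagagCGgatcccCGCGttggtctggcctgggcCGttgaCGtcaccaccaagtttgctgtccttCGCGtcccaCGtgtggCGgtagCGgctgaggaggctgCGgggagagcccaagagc
Hs3st3b1: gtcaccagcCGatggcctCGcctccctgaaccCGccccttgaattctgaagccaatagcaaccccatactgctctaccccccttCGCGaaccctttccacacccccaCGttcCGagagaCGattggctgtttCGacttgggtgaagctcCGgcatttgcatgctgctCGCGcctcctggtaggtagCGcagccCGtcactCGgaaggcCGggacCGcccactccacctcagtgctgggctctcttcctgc
The Hs6st3 window held 36 CG dinucleotides, a number reached by 3.26% of the 16457 windows of the same length before annotated gene starts. Chst11 held 26 (12.2% of windows reached that), Hs3st3a1 20 (24.1%), Hs3st3b1 17 (32.2%) and St8sia2 15 (37.6%). The median was 17 over the 37 family genes with an annotated start and 10 over all windows.

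Of the 49 genes, 32 had at least 1 listed interaction, or 65.3%, beside 44.4% of all autosomal protein-coding genes. There were 16 genes listed at both stages, 16 at E16.5 only and 0 at E12.5 only; over all genes, 17.1% were listed at E16.5 only and 2.44% at E12.5 only. Both Hs6st genes and all 7 Hs3st genes were listed, as were 8 of 13 Chst, 4 of 6 St8sia, 3 of 4 Ndst, 3 of 6 St3gal, 2 of 3 B3gat, 2 of 6 St6galnac and 1 of 2 St6gal genes. The 17 genes with none at either end in any library were B3gat3, Chst3, Chst4, Chst9, Chst13, Chst14, Ndst4, St3gal2, St3gal3, St3gal6, St6gal2, St6galnac1, St6galnac3, St6galnac4, St6galnac6, St8sia5 and St8sia6. They include B3gat3, which adds the glucuronic acid of the linkage region that heparan and chondroitin chains share, as well as Chst14, a dermatan sulfate sulfotransferase, and Chst3, a chondroitin sulfotransferase.

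**Figure D1:**
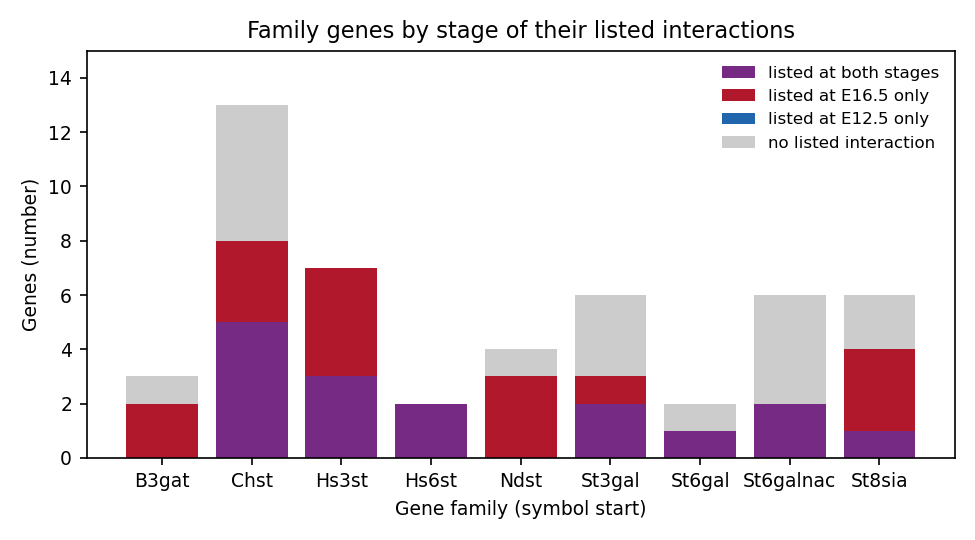
Number of genes (vertical axis) in each of 9 symbol families, divided by the stages at which any interaction of either gene-end bin was listed. All 7 Hs3st and both Hs6st genes had listed interactions, and no bar has genes listed at E12.5 only.

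The family genes had 51 listed interactions in E12.5 replicate 1, 43 in E12.5 replicate 2, 218 in E16.5 replicate 1 and 302 in E16.5 replicate 2. The mean was 47.0 ± 5.66 (SD, n = 2) at E12.5 and 260.0 ± 59.4 (SD, n = 2) at E16.5, a ratio of 5.53, while the whole lists grew 2.09 times. As a share of the list this was 0.277% and 0.267% at E12.5 against 0.618% and 0.821% at E16.5. Both E16.5 libraries lay above both E12.5 libraries, and E16.5 replicate 2 was the highest. Since the family was proposed with earlier results of these libraries in view, these shares are a description with no test.

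Together the genes took part in 395 different bin pairs. Of these, 323 (81.8%) were listed at E16.5 only, 57 (14.4%) at both stages and 15 at E12.5 only, where all 58543 bin pairs of the series gave 57.3% at E16.5 only and 30.4% at both. Of the 72 family pairs listed at E12.5, 57 (79.2%, 95% Wilson interval 68.4 to 86.9, counting error only) were also listed at E16.5, beside 71.0% over all bin pairs. In both E16.5 libraries but neither E12.5 library 97 family pairs (24.6%) were listed, beside 8910 (15.2%) of all bin pairs. The reverse was seen for 1 family pair, of Hs3st3b1, beside 1074 of all bin pairs. The median distance of the family's interactions was 340 and 320 kb at E12.5 and 405 and 380 kb at E16.5, each above the 260 to 300 kb of all interactions in the same libraries.

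The number of listed interactions per gene-end bin was compared between stages with edgeR's quasi-likelihood test over all 2449 gene-end bins with a sum of at least 10, and log2 changes are E16.5 minus E12.5 after scaling for the length of the lists. The family has 93 end bins, of which 40 had any listed interaction and 16, of 15 genes, reached a sum of 10; none of the 16 also holds an end of another protein-coding gene. Of those 16 bins, 6 were higher at E16.5 and 0 lower past an adjusted p of 0.05, and 10 did not pass; over all tested bins 9.55% passed, 7.39% higher and 2.16% lower. At an unadjusted p under 0.05 there were 9, all higher, and DESeq2 called 3 higher and 0 lower. For 13 of the 16 bins the raw numbers of the later stage both exceeded those of the earlier stage, for 0 both were lower and for 3 the stages overlapped, where over all tested bins 59.0% were higher and 4.16% lower in this way. Over bins with an annotated gene start in place of the gene ends, 1 of 13 family bins was higher past the threshold, beside 4.99% of all such bins. A bin that reached the sum through E16.5 alone had to differ, and 12 of the 16 had fewer than 10 interactions at E12.5, so nothing is read from these counts about the family. Each call rested on both E16.5 libraries: without replicate 1 or replicate 2 of that stage 0 of the 2449 bins passed (451 and 349 at an unadjusted p under 0.05), while with the sum of 10 applied again to the other 3 libraries 86 and 127 bins passed, 4 and 5 of them of the family. Without E12.5 replicate 1, the library with the conflicting protocol, 120 bins passed, 5 of them of the family: St3gal1, Hs6st3, B3gat2, St6galnac5 and Hs3st1, but not Chst11 or B3gat1 (adjusted p = 0.132 and 0.0794).

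**Figure D2:**
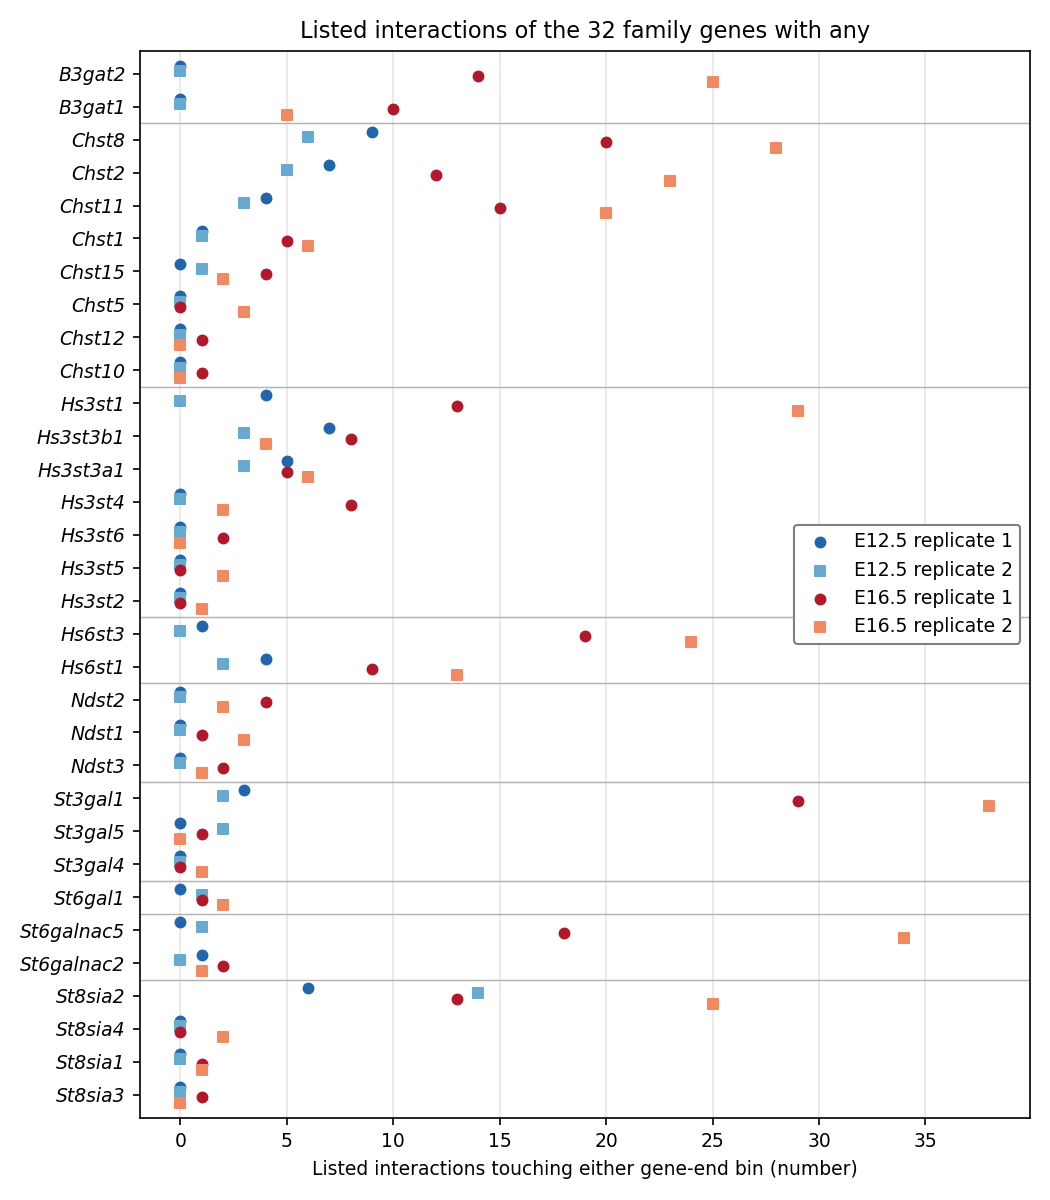
Listed interactions touching either gene-end bin (horizontal axis, number) for the 32 family genes with any; each gene has 4 points, circles for replicate 1 and squares for replicate 2, blue for E12.5 and red or orange for E16.5. St3gal1, St6galnac5, B3gat2 and Hs6st3 have 0 to 3 at E12.5 and 14 to 38 at E16.5, whereas the points of Hs3st3a1, Hs3st3b1 and St8sia2 overlap between stages.

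Among the sialyltransferases, 2 end bins rose and the bin of the polysialyltransferase St8sia2 did not pass. St3gal1 caps the core disaccharide of O-linked glycans, and its higher-coordinate end bin (chr15:67170001-67180000) had 3 and 2 listed interactions at E12.5, against 29 and 37 at E16.5. Both E16.5 numbers stood far above both E12.5 numbers. The log2 change was 2.93 (SE 0.38, 7.63-fold, edgeR adjusted p = 0.00925). It also passed with DESeq2 (adjusted p = 0.0288), and with every list cut to its 16075 interactions of lowest FDR (edgeR adjusted p = 0.0190). This gain was known when the family was chosen, so its p is no independent support.

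The St3gal1 bin took part in nearly all of the gene's 50 bin pairs, and 46 of the 50 ran toward higher coordinates. A block of 13 partner bins 190 to 380 kb away held all 3 and 2 of the E12.5 interactions on that side and 8 and 9 at E16.5. The farther blocks, of 16 bins at 630 to 810 kb and 15 bins at 850 to 1000 kb, held 0 and 0 at E12.5 but 9 and 15, and 8 and 11, at E16.5. The most distant block reached into the body of Zfat, a zinc finger gene; 36 of the 50 partner bins touched no protein-coding gene body. The pair with most read pairs, 250 kb away, had 17 read pairs in E12.5 replicate 1, was not listed in E12.5 replicate 2, and had 23 and 33 at E16.5.

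St6galnac5, which sialylates gangliosides, had 0 and 1 listed interactions at its higher-coordinate end bin (chr3:152980001-152990000) at E12.5, against 18 and 34 at E16.5. The stages did not overlap, and E16.5 replicate 2 was the higher library. With 1 interaction in all at E12.5, the ratio after scaling was 31.0, with a 95% counting interval of 5.33 to 1249 (edgeR adjusted p = 0.0128; DESeq2 adjusted p = 0.0492). Of its 37 partner bins, 34 lay inside the body of the neighbouring paralog St6galnac3, in blocks of 12 bins at 230 to 370 kb and 22 bins at 420 to 680 kb. St6galnac3 spans 526.9 kb and had no listed interaction at either of its own ends; bins within its body were listed with the end of St6galnac5.

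**Figure D3:**
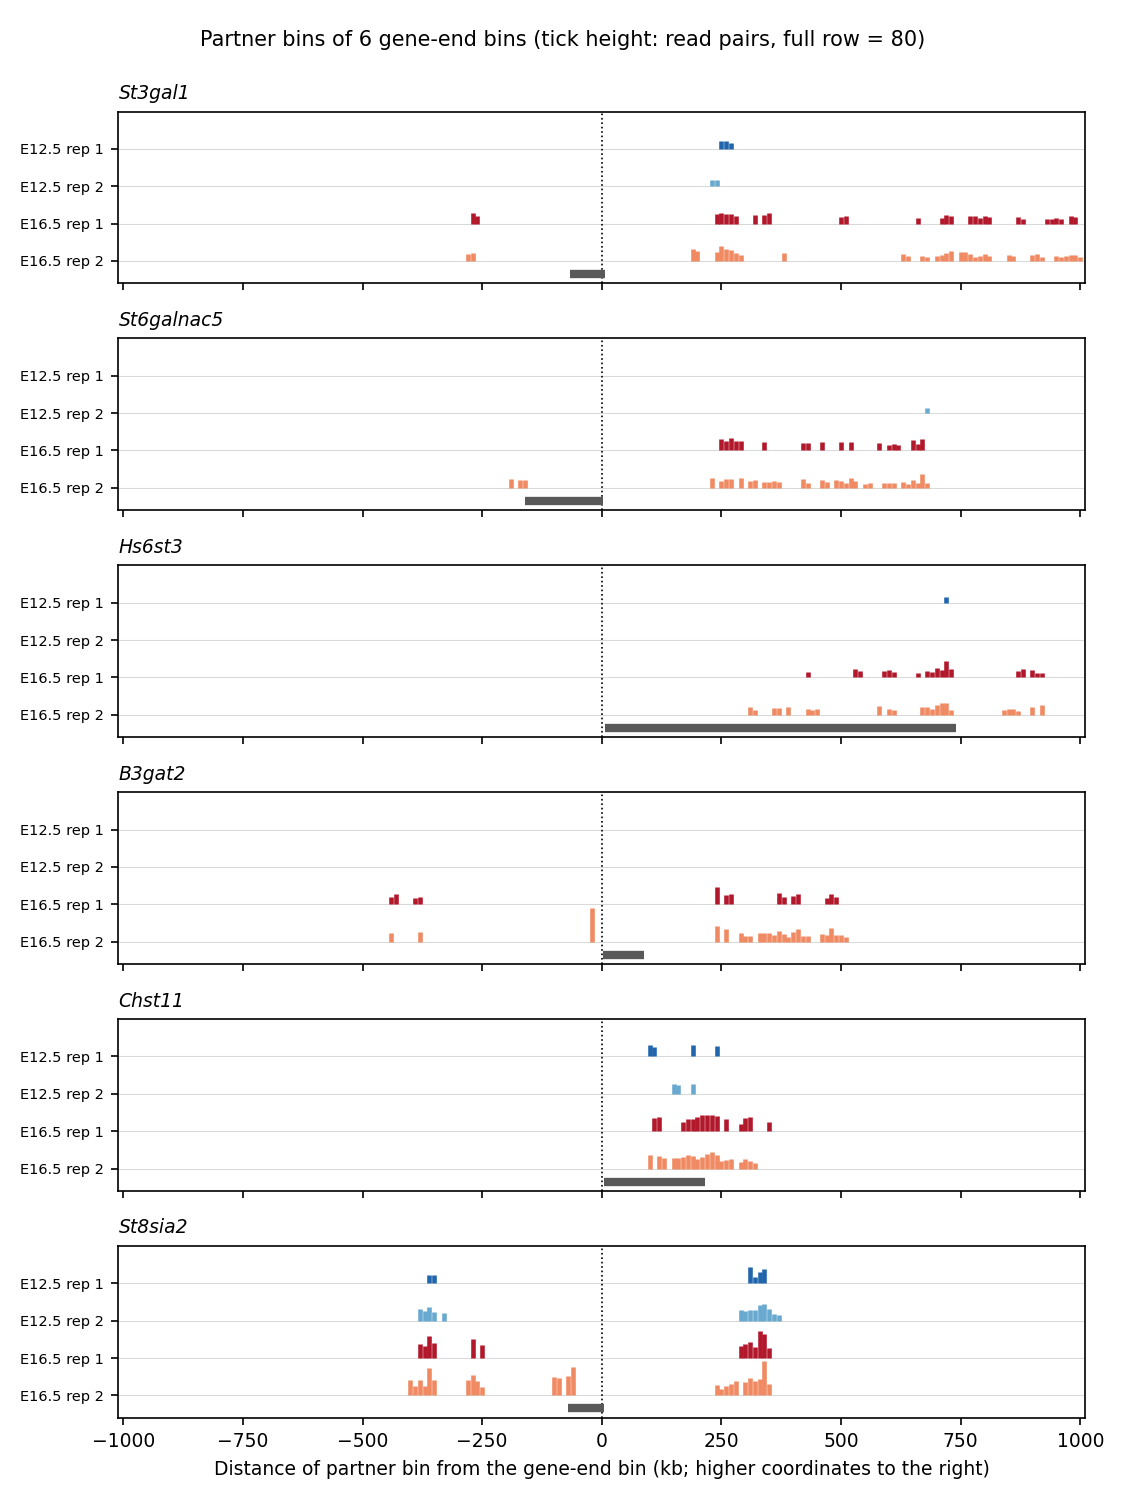
Distance of each partner bin from the gene-end bin (horizontal axis, kb; 0 is the dotted line, higher coordinates to the right) for 6 genes, with 1 row per library, tick height proportional to read pairs (a full row is 80) and a grey bar for the gene. The St3gal1 partners beyond 630 kb and the St6galnac5 partners at 230 to 370 kb appear in the E16.5 rows only, while 6 St8sia2 partners, 310 to 340 kb to the right and 350 and 360 kb to the left, are filled in all 4 rows.

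St8sia2, the polysialyltransferase known for its high activity in the embryonic brain, had the highest sum at a single end bin after St3gal1. Its start bin (chr7:74010001-74020000) had 6 and 14 listed interactions at E12.5, against 13 and 25 at E16.5, so the stages overlapped. The log2 change was 0.18 (SE 0.44, edgeR adjusted p = 0.860). Its sign turned to -0.33 without E12.5 replicate 1 and to -0.32 without E16.5 replicate 2. The 29 partner bins lay on both sides, 13 toward lower and 14 toward higher coordinates and 2 inside the gene, with 12 in the body of Slco3a1, an organic anion transporter gene.

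The other sialyltransferases had at most 4 listed interactions over the 4 libraries at their better-connected end bin. St6gal1 (sum 4) and St6galnac2 (sum 4) were listed at both stages, as was the GM3 synthase gene St3gal5 (sum 3), which had 0 and 2 at E12.5, against 1 and 0 at E16.5. St8sia4, the other polysialyltransferase, had 2 interactions, both in E16.5 replicate 2. The GD3 synthase gene St8sia1 (sum 2), St3gal4 (sum 1) and St8sia3 (sum 1) were listed at E16.5 only. St3gal4 shares its bin with an end of Kirrel3, so those genes cannot be told apart there.

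Both glucuronyltransferases of the HNK-1 epitope were listed at E16.5 only. The lower-coordinate end bin of B3gat2 (chr1:23760001-23770000) had 0 and 0 at E12.5, against 14 and 25 at E16.5, and that of B3gat1 (chr9:26730001-26740000) had 0 and 0 against 10 and 5. The annotated start of B3gat1 lies in another bin inside the gene (chr9:26750001-26760000), which had no listed interaction in any library. Both bins reached the sum of 10 through E16.5 alone, so they had to differ. B3gat1 fell below that sum when the lists were cut to equal length and had no adjusted p with DESeq2. Set against a floor of 3 interactions over the E12.5 libraries together, B3gat2 was at least 7.76-fold higher (edgeR adjusted p = 0.0128, DESeq2 adjusted p = 0.0212). B3gat1 was at least 2.98-fold higher (edgeR adjusted p = 0.0429). Over the same bins, the B3gat1 call was lost whichever library was left out (edgeR adjusted p = 0.0664 to 0.390), though without E16.5 replicate 2 it was kept when the filter was applied again (adjusted p = 0.00145); it was also lost with no filter (adjusted p = 0.0932) and with the dispersion held at 1 or above (adjusted p = 0.0975).

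The partners of B3gat2 formed 1 block of 23 bins 240 to 510 kb toward higher coordinates, across Sdhaf4, Fam135a and the collagen genes Col9a1 and Col19a1, and 5 bins on the other side toward Ogfrl1. Its 2 pairs with most read pairs held 72 each: the pair with the bin of Sdhaf4 at 240 kb, with 38 and 34 in the E16.5 libraries, and a pair at 20 kb listed in E16.5 replicate 2 alone. All 13 partners of B3gat1 lay toward lower coordinates, 7 of them 200 to 260 kb away and 4 of them 830 to 860 kb away, and none touched a protein-coding gene body. The sulfotransferase of the same epitope, Chst10, had 1 listed interaction, in E16.5 replicate 1, in a bin shared with another gene.

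Of the heparan sulfate enzymes, the start bin of Hs6st3 rose and those of the 5 other genes tested did not pass. Hs6st3 (start bin chr14:119130001-119140000) had 1 and 0 listed interactions at E12.5, against 18 and 24 at E16.5. The ratio after scaling was 25.1, with a 95% counting interval of 4.26 to 1013 (edgeR adjusted p = 0.0110). The bin reached the sum of 10 through E16.5, so the filter favoured a difference. The call was lost with DESeq2 (adjusted p = 0.0654). It was also lost with each cluster of neighbouring interactions counted once (log2 change 3.12, edgeR adjusted p = 0.0608). Hs6st3 is 732.3 kb long, the longest gene of the family, and 23 of its 31 partner bins lay inside it. A block of 7 bins 660 to 720 kb from the start, close to the gene's far end, held the single E12.5 interaction and 6 in each E16.5 library. The adjoining bin at 730 kb, which holds the far end itself, was listed with the start bin at E16.5 only, with 18 and 10 read pairs. The pair with most read pairs, at 720 kb, had 12, none listed, 35 and 25. A further 8 bins lay past the gene at 840 to 920 kb, near Oxgr1, at E16.5 only.

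Hs6st1, the other autosomal member of its enzyme class, had 4 and 2 listed interactions at E12.5, against 9 and 13 at E16.5, with a log2 change of 1.11 (SE 0.46, edgeR adjusted p = 0.253). The stages did not overlap in raw numbers, as for the 59.0% of all tested bins that were higher in both E16.5 libraries, and the change did not pass the test. Of its 19 partner bins, 18 lay toward lower coordinates, and 6 of them, 660 to 710 kb away, were listed in E16.5 replicate 2 alone. Its pair with most read pairs, 20 kb away, had 91 and was also listed in that library alone.

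The Hs3st genes add a rare heparan sulfate modification, and their bins differed in pattern. Hs3st1 had 4 and 0 listed interactions at E12.5, against 13 and 29 at E16.5, with a log2 change of 2.59 (SE 0.75, edgeR adjusted p = 0.0592), and did not pass. Without E12.5 replicate 1, which held all 4 of the earlier interactions, it passed (edgeR adjusted p = 0.00208), and with any other library left out it did not (adjusted p = 0.124 to 0.401). Its partners lay up to 960 kb away, 27 of 30 toward lower coordinates, in blocks of 12 bins at 760 to 890 kb that touch Clnk and 10 bins at 480 to 600 kb. Hs3st4 had 0 and 0 at E12.5, against 8 and 2 at E16.5, a ratio of at least 1.99 that did not pass (edgeR adjusted p = 0.133).

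Hs3st3a1 and Hs3st3b1, paralogs with closely similar sulfotransferase domains, had tested bins that did not pass. The Hs3st3b1 bin had 7 and 3 listed interactions at E12.5, against 8 and 4 at E16.5 (log2 change -0.47, SE 0.55, edgeR adjusted p = 0.704). The Hs3st3a1 bin had 5 and 3, and 5 and 6 (log2 change -0.28, SE 0.46, edgeR adjusted p = 0.841). Without E12.5 replicate 1 both signs turned, to 0.22 and 0.10.

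The bins that hold their promoter windows, printed above, were listed as interacting with each other over 510 kb in all 4 libraries. That pair had 32 and 24 read pairs at E12.5, against 26 and 31 at E16.5, and it had the most read pairs of either gene. Bins next to the paralog's bin were listed too: 5 partner bins of Hs3st3a1 lay in a block 480 to 530 kb away around Hs3st3b1, and 6 partner bins of Hs3st3b1 in a block 460 to 520 kb away around Hs3st3a1. It was the only pair listed that joined end bins of different family members. The remaining Hs3st genes, Hs3st2, Hs3st5 and Hs3st6, had 1, 2 and 2 listed interactions, all at E16.5.

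The N-deacetylase and N-sulfotransferase genes, whose enzymes start heparan sulfate modification, were listed at E16.5 only. Ndst2 had a sum of 6 in a bin shared with Camk2g, and Ndst1 and Ndst3 had a sum of 3 each. None reached the sum of 10 needed for the test.

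Among the Chst genes, the start bin of Chst11 rose, and the bins of Chst1, Chst2 and Chst8 did not pass. Chst11 sulfates the N-acetylgalactosamine of chondroitin, and its start bin (chr10:82980001-82990000) had 4 and 3 listed interactions at E12.5, against 15 and 20 at E16.5. The log2 change was 1.55 (SE 0.39, 2.93-fold, edgeR adjusted p = 0.0404). The call was lost in 16 of the alternatives tried and kept in 2, with an edgeR adjusted p of 0.0576 when the lists were cut to equal length, 0.132 to 0.264 with 1 library left out and 0.406 with DESeq2; with each cluster of neighbouring interactions counted once the log2 change was 0.19. Its 22 partner bins lay 100 to 350 kb away, 11 inside the gene, which is 211.5 kb long, and 11 beyond its far end up to Slc41a2, a magnesium transporter gene.

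Chst2, which sulfates N-acetylglucosamine, had 7 and 5 listed interactions at E12.5, against 12 and 23 at E16.5 in its only bin (log2 change 0.79, SE 0.42, edgeR adjusted p = 0.302). All 26 partner bins lay toward lower coordinates inside the body of Slc9a9, a sodium-proton exchanger gene, and 13 of them in a block 530 to 680 kb away that held 4 and 5 interactions at E12.5, against 9 and 13 at E16.5. Chst8, a sulfotransferase known for pituitary hormone glycans, was tested at both ends. Its lower-coordinate end, where the transcript ends, had 7 and 4 against 17 and 19 (log2 change 0.95, SE 0.36, edgeR adjusted p = 0.180), and its start bin had 3 and 2 against 4 and 10 (log2 change 0.72, SE 0.59, edgeR adjusted p = 0.583; -0.02 without E16.5 replicate 2). The 36 partner bins of Chst8 included gene ends of Cebpa, Cebpg, Lrp3, Lsm14a and Slc7a10.

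At its lower-coordinate end bin Chst1, which sulfates keratan sulfate, had 1 and 1 against 5 and 6. The ratio after scaling was 3.28, with a 95% counting interval of 0.716 to 30.5 (edgeR adjusted p = 0.268). The Chst1 start bin, inside the gene, had 2 and 5 against 8 and 7. The remaining listed genes of the group were low at their end bins. The Chst15 start bin, inside the gene, had 52 listed interactions in all and is described further below. Chst15 had a sum of 5 at its better-connected end bin, Chst5 a sum of 3, and Chst10 and Chst12 a sum of 1 each. Chst15 was listed at both stages and the other 3 at E16.5 only.

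The strength of a contact was compared on the read pairs of the 6875 bin pairs listed in all 4 libraries, 719 of which (10.5%) changed past the threshold, 5.88% higher at E16.5. The family had 19 such contacts of 7 genes: 6 of St8sia2, 4 of Chst2, 3 of Chst8, 3 of Hs3st3a1, 2 of Hs3st3b1, 1 of Chst11 and 1 of Hs6st1, with the contact between the Hs3st3 paralogs counted under both. None of the bins that rose, other than that of Chst11, had a contact in all 4 libraries. One family contact passed, that of St8sia2 with the bin 360 kb toward lower coordinates. It had 17 and 29 read pairs at E12.5, against 47 and 59 at E16.5, with a log2 change of 0.84 (SE 0.28, edgeR adjusted p = 0.0382). That call was lost in 6 of 10 alternatives, among them the scaling without TMM (adjusted p = 0.0562), the authors' expected count as an offset (0.274), DESeq2 (0.310), and the fits without E12.5 replicate 1 (0.536) and without E16.5 replicate 2 (0.251).

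For 9 of the 19 contacts the raw read pairs at E16.5 both exceeded those at E12.5, beside 50.7% of all contacts, for 0 both were lower, beside 7.87%, and for 10 the stages overlapped. The median log2 change of the 19 was -0.13, beside -0.01 over all. The St8sia2 contact with most read pairs, 340 kb toward higher coordinates, had 30 and 36 at E12.5, against 51 and 74 at E16.5. The strongest Chst2 contact, 660 kb away, had 27 and 17 against 36 and 36, and the Chst11 contact, 190 kb inside the gene, had 25 and 21 against 26 and 27; none of these passed.

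**Figure D4:**
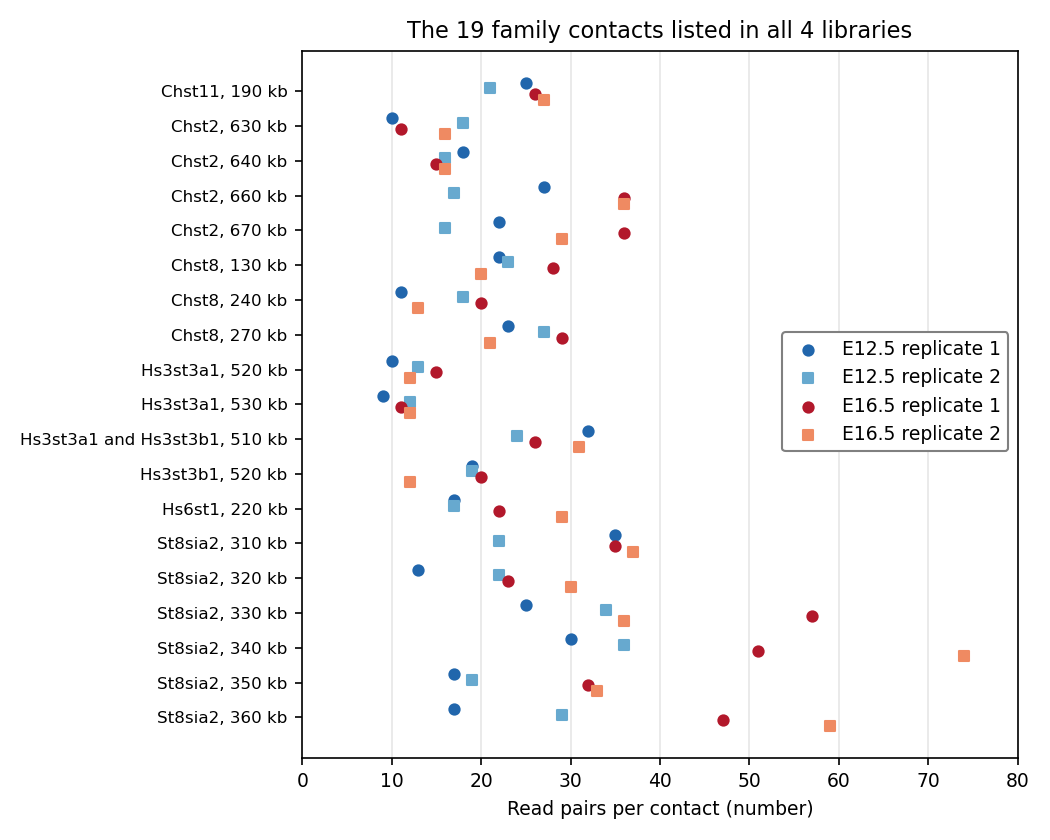
Read pairs (horizontal axis, number) of the 19 family contacts listed in all 4 libraries, each named by gene and distance, with circles for replicate 1, squares for replicate 2, blue for E12.5 and red or orange for E16.5. The St8sia2 contacts at 340 and 360 kb reach 51 to 74 and 47 to 59 at E16.5, while the 4 points of the contact between Hs3st3a1 and Hs3st3b1 lie between 24 and 32.

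Most partner bins of the family held no gene end: 46 of 395 (11.6%) did. Over all listed pairs with a gene end in either bin, 18.5% had a gene end in both bins. The family's share is counted from the family gene's own bin and the share over all pairs is not, so they cannot be compared. The 32 listed genes had a median length of 72.2 kb and the 17 without interactions 54.3 kb, where all listed and unlisted genes had 22.5 and 14.3 kb. The median number of CG dinucleotides in the 250 bases before the start was 19 in the listed members with an annotated start and 15 in the others, beside 15 and 5 over all genes.

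The other genes of these pathways were followed in 7 lists with 75 autosomal genes, of which 42 had listed interactions. There were 16 with a tested bin, and of these 6 were higher at E16.5, 0 lower and 10 not past the threshold, beside 7.39% higher and 2.16% lower over all bins. As for the family, a bin that reached the sum of 10 through E16.5 alone had to differ, so nothing is read from these counts about the pathways. Ncam1, the main carrier of polysialic acid, had 7 and 3 listed interactions at E12.5, against 36 and 50 at E16.5 (log2 change 2.34, SE 0.36, edgeR adjusted p = 0.0121). Cadm1, an adhesion molecule that can also carry polysialic acid, had 12 and 9 against 35 and 56 (edgeR adjusted p = 0.0290). Nrp2, another carrier, had 21 and 23 against 44 and 38, with an edgeR adjusted p of 0.803. In raw numbers, before scaling for the longer E16.5 lists, the stages did not overlap for any of the 3 genes. Over all tested bins 59.0% were higher in this way.

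Of the chondroitin chain enzymes, the synthase gene Chsy3 had 0 and 0 against 5 and 8 (at least 2.59-fold, edgeR adjusted p = 0.0390) and the initiating transferase gene Csgalnact1 had 0 and 0 against 6 and 6 (at least 2.39-fold, edgeR adjusted p = 0.0391). Both reached the sum of 10 through E16.5 alone, and neither passed with the dispersion held at 1 or above (adjusted p = 0.106 and 0.111). Of the proteoglycan cores, versican (Vcan) had 6 and 3 against 22 and 28 (edgeR adjusted p = 0.0256) and testican (Spock1) 0 and 1 against 16 and 15 (edgeR adjusted p = 0.0137). The Spock1 bin likewise reached the sum of 10 through E16.5, so the filter favoured a difference. When the lists were cut to equal length, Ncam1 still passed (edgeR adjusted p = 0.0190), the calls of Cadm1, Vcan and Spock1 were lost (adjusted p = 0.0524, 0.594 and 0.102), and Chsy3 and Csgalnact1 fell below the sum of 10. With DESeq2, Ncam1 passed (adjusted p = 0.0288) and Cadm1, Vcan and Spock1 did not (adjusted p = 0.184, 0.251 and 0.124). None of the 12 genes for sialic acid supply and removal, the 5 for the ganglioside core or the 7 for the sulfate donor reached the sum of 10, and 3 of 15 heparan sulfate chain genes did, Xylt1, Ext1 and Sulf2, none past the threshold (edgeR adjusted p = 0.208 to 0.500).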

How the data were processed

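H3K4me3 PLAC-seq interactions of mouse fetal forebrain (2 libraries each at E12.5 and E16.5) were used. The tools and build named in the submitters' processing notes are BWA, SAMtools and mm10; which program called the interactions is not given in the sources used here. The authors deposited, per the file headers, a count of read pairs, the number expected and an FDR (a q-value) for each pair of 10 kb bins; in the files every FDR is under 0.01 and every count at least 2 times its expected count. Counts were used as deposited. Gene positions and promoter sequences came from RefSeq tables of GRCm38.p6, whose primary sequence is that of mm10; 37 of 49 family genes had an annotated start.

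The number of listed interactions per gene-end bin (2449 bins with a sum of at least 10) and the read pairs of 6875 bin pairs listed in all 4 libraries were tested with edgeR 4.0.16 in R 4.3.3 (TMM, robust quasi-likelihood, stage as the sole term, Benjamini-Hochberg adjustment over all bins or pairs at 0.05), after tests on simulated data. SEs are the absolute log2 change over the square root of F. A bin at 0 in 1 stage was bounded at 3 interactions over that stage. Exact permutation of 2 against 2 libraries cannot give a p below 0.333. Replicate pairs differed by more than counting noise (chi-square 1.34 and 1.93 times its degrees of freedom). Alternatives included DESeq2 1.42.0, other filters, lists cut to equal length and each library left out.

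Every member with at least 10 interactions at its better-connected end bin was named with all values, others by sum. Pathway genes were named where their bin passed; Nrp2, Xylt1, Ext1 and Sulf2 were named after their values were seen. The members and lists were chosen with earlier results of these data known.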

Additional observations from a re-analysis of the deposited data

Results flagged for a closer look

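Bins that hold an annotated RefSeq start inside a gene lie outside the gene-end bins of the main comparison, and those of 4 family genes had more listed interactions than the gene's end bins: Chst15, Chst1 and St8sia1, given here, and Chst3, with 2 interactions in E16.5 replicate 2 and none at its ends. The start bin of Chst15, which adds a further sulfate to chondroitin, had 5 and 7 listed interactions at E12.5, against 13 and 27 at E16.5, 52 in all, against 5 at its better-connected end bin. The start bin of the keratan sulfate sulfotransferase gene Chst1 had 2 and 5 against 8 and 7, 22 in all, and that of the GD3 synthase gene St8sia1 had 2 and 3 against 7 and 10, also 22 in all. None of the first 3 passed among bins with an annotated start (edgeR adjusted p = 0.243, 0.838 and 0.421).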

How the results depend on the processing

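The number of gene-end bins past the threshold moved most with the processing. It was 234 (181 higher, 53 lower) of 2449, and became 48 with DESeq2, 127 with no filter, 65 at an FDR under 0.0001, 81 with lists of equal length, 13 with clusters counted once, 24 with the quasi-dispersion at 1 or above, 401 over the union of both end bins of a gene, 17 at distances of at most 200 kb and 115 over bins with an annotated gene start. Leaving out 1 library gave 0 to 143 bins, and 86, 116, 122 and 127 when the filter was applied again, a choice made after seeing the data, as were the start bins. Without TMM the split was 156 higher and 88 lower, and the median log2 change of all bins was 0.01 in place of 0.19. The number of family bins past the threshold was 6, and became 3 with DESeq2, 3 with clusters counted once and 0 at distances of at most 200 kb (2 bins tested). It was 1 of 13 over start bins, a different set of bins in which St3gal1, B3gat2 and St6galnac5 had no annotated start. The fits with 1 library left out are given above, and they did not always call the same bins. The contacts past the threshold went from 719 to 98 with DESeq2, 18 with the expected count as an offset and 274 to 537 with 1 library left out. The family's share of the lists differed by 0.447 percentage points between stages, 0.570 with clusters counted once and 0.346 to 0.549 with 1 library left out, and the share of E12.5 pairs also listed at E16.5 was 90.3% within 1 bin in place of 79.2%. Over the family's tested bins and its contact past the threshold, 206 of the alternatives tried kept direction and side of the threshold, 41 lost the call, 5 gained one and 9 changed sign. The last were Chst8 (start bin; -0.023 without E16.5 replicate 2), Hs3st3b1 (0.22, or 0.14 with the filter applied again), Hs3st3a1 (0.10 and 0.022) and St8sia2 (-0.33 and -0.41) without E12.5 replicate 1, and St8sia2 without E16.5 replicate 2 (-0.32 and -0.30). With 1 library left out these log2 changes ranged from -0.023 to 1.16 for Chst8, -1.10 to 0.22 for Hs3st3b1, -0.58 to 0.10 for Hs3st3a1 and -0.33 to 0.92 for St8sia2. The cause was not tested.

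Replicate numbers are shared by both stages in the labels, but no label says that they mark a shared litter or day, and same-numbered libraries deviated together only weakly (r = 0.0992 over bins and 0.128 over contacts). With the replicate block 385 bins, 8 family bins (Hs3st1 and Hs3st4 in addition) and 939 contacts passed.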
